A study of Rattus norvegicus with 18 samples.

Results

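The choroid plexus epithelium genes described here are 35 genes whose products mark, or are made in quantity by, the epithelial cells of the choroid plexus. They were taken by symbol from a list whose rule uses no measured value, though the list was drawn up with earlier results of these data known. All 35 were among the 20909 genes measured, and each had at least 1 read in every library. RNA of the whole hippocampus was sequenced from 18 male rats, all adult, at 1 library per rat and 6 rats per group. The bred High Responder (bHR) and the bred Low Responder (bLR) rats are lines bred for a high or a low locomotor response to novelty, here in generation 37, and the bred Intermediate Responder (bIR) rats were obtained by crossing bHR with bLR. The bIR rats were younger when killed, at P126 to P134 (days after birth) against P160 to P167 in both lines, so age and group cannot be told apart where bIR is compared. Rats of all 3 groups had been through a test of locomotion in a new environment and an elevated plus maze, and none is labelled as treated.

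The choroid plexus is a folded sheet of epithelium over a vascular stroma that hangs into the brain ventricles and secretes cerebrospinal fluid. In the lateral ventricle it lies along the fimbria of the hippocampus. Its cells move ions and water into the ventricle, seal the border between blood and fluid with tight junctions, carry folate, thyroid hormone and other solutes across, and release proteins such as transthyretin (TTR) into the fluid. Several of the genes are not restricted to this epithelium: ENPP2 is also made by oligodendrocytes, IGF2, IGFBP2 and SLC13A4 by the meninges, and ACE by blood vessels.

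Levels are given in FPM, fragments scaled to the depth of the library. Library totals ran from 31.1 to 66.6 M reads, so 1 FPM stands for roughly 31 to 67 reads. Batch, lane and litter are not labelled. Markers of hippocampal granule cells (8 measured) summed to 331 to 532 FPM and those of pyramidal cells (10) to 710 to 1441 FPM, with every library well above 0. TTR set the libraries apart before any comparison between groups. In bHR it was at 61.1 FPM in rat HR_22, 78.0 in HR_26, 99.4 in HR_10, 115 in HR_34, 552 in HR_2 and 4172 in HR_38. In bIR it was at 75.7 FPM in IR_293, 94.6 in IR_158, 192 in IR_149, 3397 in IR_248, 11994 in IR_213 and 13406 in IR_261. In bLR it was at 75.4 FPM in LR_16, 114 in LR_32, 131 in LR_8, 136 in LR_44, 929 in LR_48 and 1635 in LR_20.

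The highest TTR level was thus 219 times the lowest, the ranges of the 3 groups overlapped, and every group held both low and high libraries. Ordered by TTR, 11 libraries (4 bHR, 3 bIR, 4 bLR) lay below 8 on the log2 scale, up to 192 FPM. The other 7 spread from 552 FPM upward. The largest steps between neighbours in that order were 1.53 log2 units below HR_2 and 1.52 below IR_213. The 4 libraries above 11 on the log2 scale were IR_248, HR_38, IR_213 and IR_261, with totals of 38.6, 31.1, 36.7 and 47.6 M reads. Together the 35 genes took from 0.0477% of all reads in LR_16 to 1.85% in IR_261. In whole tissue a smaller number of cells of a type and less RNA per cell cannot be told apart, so none of these values is a count of cells.

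**Figure D1:**
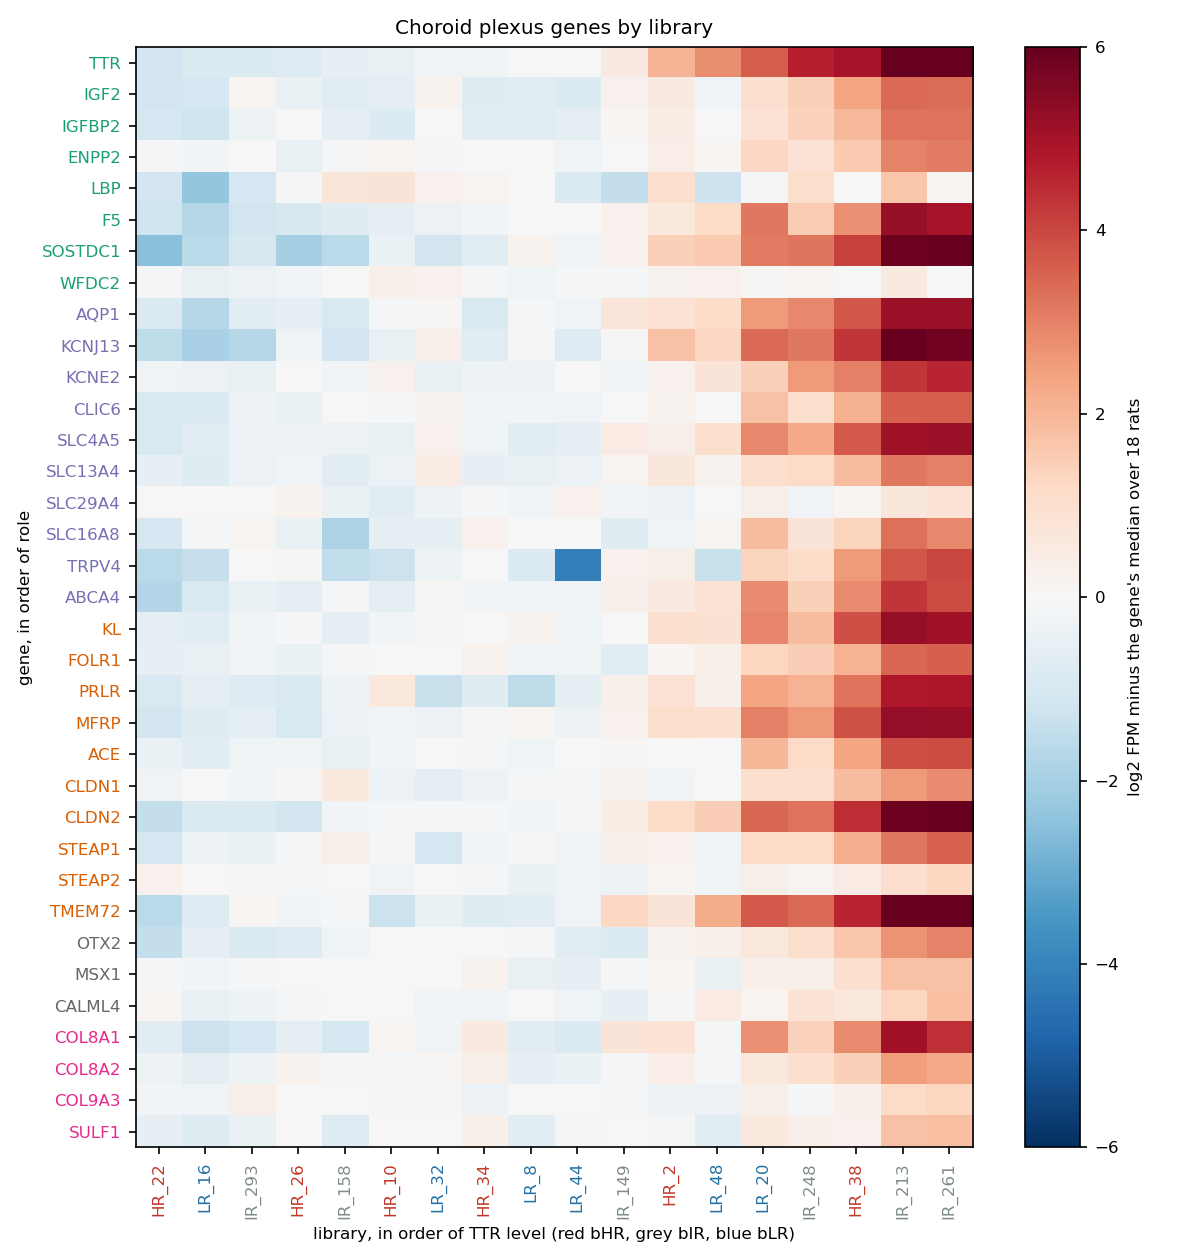
Each row is 1 of the 35 genes and each column 1 of the 18 libraries, ordered from the lowest to the highest TTR level, and colour gives the log2 FPM minus that gene's median over the 18 rats. The 2 columns at the right, IR_213 and IR_261, are the highest libraries in 33 of the 35 rows, with LBP and WFDC2 as the exceptions, and the dark blue cell of TRPV4 in LR_44 rests on 1 read.

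IR_213 and IR_261, the 2 libraries highest in TTR, were also the 2 highest in 32 of the other 34 genes. The 4 libraries highest in TTR were the 4 highest in 13 of the 34, and the 7 highest in TTR were the 7 highest in 9. How far each gene followed TTR from rat to rat was measured by a slope, the log2 change of the gene per log2 change of TTR, fitted with limma in 1 model with the 3 group means, so that differences between groups do not enter it. A slope of 1 means that the gene changed in proportion to TTR and a slope of 0 that it did not change with it. Of the 34 genes other than TTR, 30 had a positive slope with an adjusted p under 0.05 and none a negative one. Over all genes, 1.22% had a positive slope called by the same rule. The median slope of the 34 genes was 0.45, and that of all 20908 genes -0.001. Slopes are given below with their standard error (± SE).

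**Figure D2:**
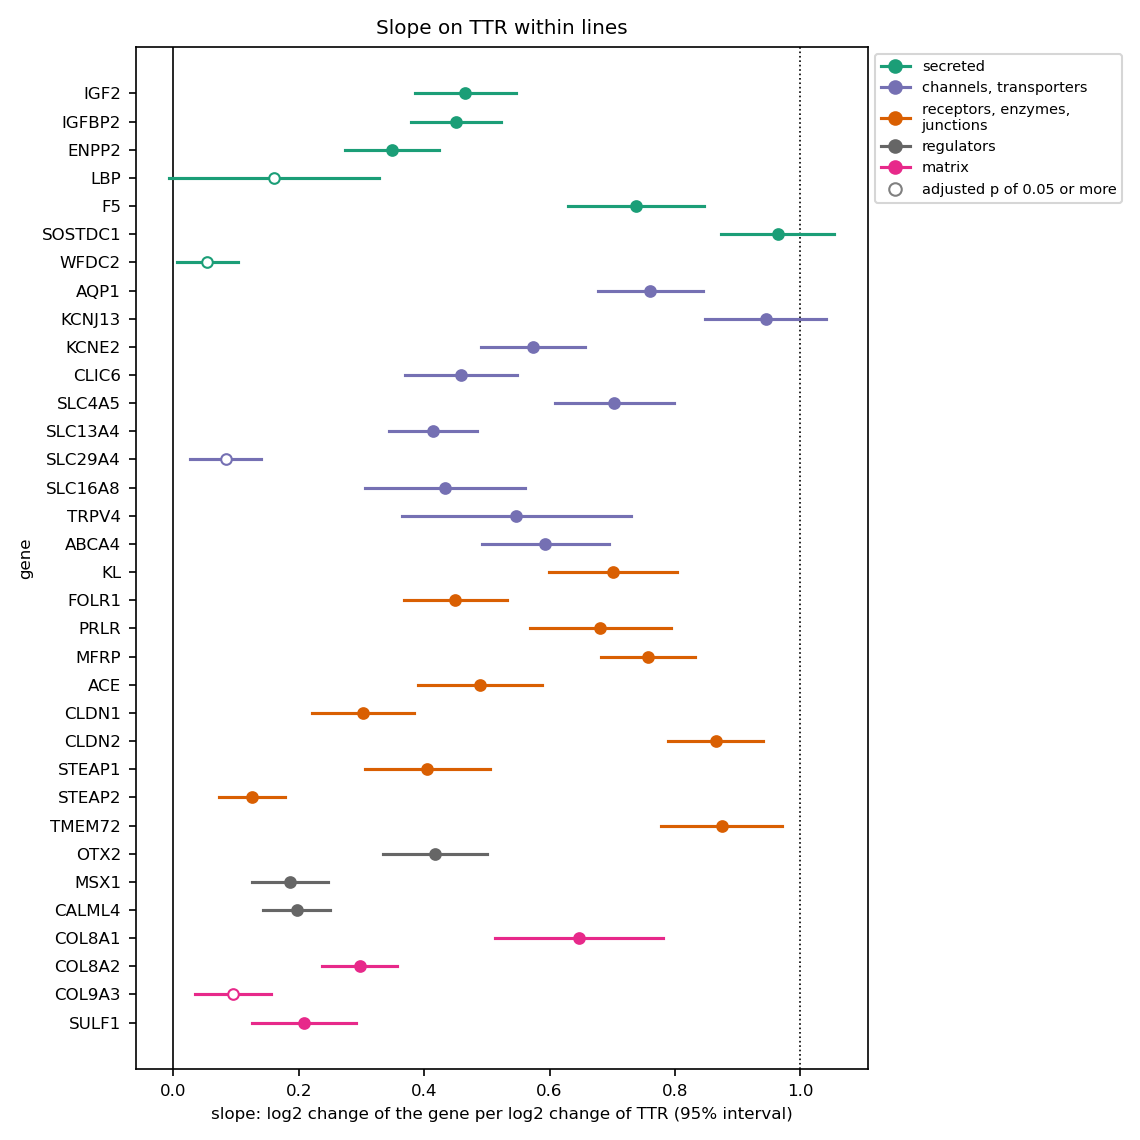
Points are the slopes of 34 genes on TTR (log2 change per log2 change of TTR, limma with group means) with 95% intervals, coloured by role, and open points have an adjusted p of 0.05 or more. The slopes run from 0.05 in WFDC2 to 0.96 in SOSTDC1, and the dotted line at 1 marks change in proportion to TTR.

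Promoter sequence was looked at for all members in the RefSeq table, whether or not they moved with TTR, because OTX2 and MSX1, the transcription factors among the 35, bind short motifs. RefSeq promoters of 300 bases (250 before and 50 after the start of the gene, build GRCr8) were matched for 25 of the 35 genes, 27 promoters in all. The motif TAATCC of OTX2, searched on both strands, was found in the promoters of ABCA4, ACE and MFRP, 11.1% of the 27, and in 7.17% of 33469 promoters of the genome. TAATTG of MSX1 was found in KCNJ13 and TMEM72, 7.41% of the 27 against 8.20%, and the TATA box TATAAA in ACE, AQP1 and KCNJ13, 11.1% against 14.2%. These shares are descriptions of the letters alone, and with 3 or fewer matches a motif they do not set these promoters apart. In ACE the TATAAA and TAATCC matches overlap. The 5 promoters below hold a motif and belong to genes whose slope was also called without the 4 libraries highest in TTR. They are written along the strand of the gene, with the motif in capitals.
ABCA4 (chr2:212849235-212849534, plus strand, TAATCC on the opposite strand, first base at -58 from the start): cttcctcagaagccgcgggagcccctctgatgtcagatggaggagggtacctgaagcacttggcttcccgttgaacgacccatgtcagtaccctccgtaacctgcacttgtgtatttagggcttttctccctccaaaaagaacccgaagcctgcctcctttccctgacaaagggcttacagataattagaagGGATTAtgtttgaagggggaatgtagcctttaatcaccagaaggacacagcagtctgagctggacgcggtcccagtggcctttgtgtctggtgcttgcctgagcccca
MFRP (chr8:53342284-53342583, plus strand, TAATCC on the opposite strand, first base at -99): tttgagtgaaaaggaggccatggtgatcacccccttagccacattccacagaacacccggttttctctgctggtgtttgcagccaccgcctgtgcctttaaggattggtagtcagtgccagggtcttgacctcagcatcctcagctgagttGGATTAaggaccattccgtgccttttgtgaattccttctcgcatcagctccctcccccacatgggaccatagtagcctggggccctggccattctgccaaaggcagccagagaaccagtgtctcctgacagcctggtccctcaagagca
KCNJ13 (chr9:95518937-95519236, minus strand, TAATTG at -115 and TATAAA at -46): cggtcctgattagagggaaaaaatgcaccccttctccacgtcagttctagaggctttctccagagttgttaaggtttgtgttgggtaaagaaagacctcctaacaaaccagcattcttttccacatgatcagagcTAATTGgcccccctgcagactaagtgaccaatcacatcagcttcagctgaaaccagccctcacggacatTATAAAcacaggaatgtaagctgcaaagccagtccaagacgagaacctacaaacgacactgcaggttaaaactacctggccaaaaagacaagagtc
TMEM72 (chr4:151645940-151646239, minus strand, TAATTG at -35): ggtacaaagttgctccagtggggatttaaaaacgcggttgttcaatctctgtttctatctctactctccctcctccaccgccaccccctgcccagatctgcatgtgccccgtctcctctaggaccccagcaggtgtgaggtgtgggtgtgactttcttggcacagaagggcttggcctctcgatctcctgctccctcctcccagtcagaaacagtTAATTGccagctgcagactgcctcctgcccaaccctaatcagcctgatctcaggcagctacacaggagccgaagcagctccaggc
AQP1 (chr4:85812534-85812833, plus strand, TATAAA at -30): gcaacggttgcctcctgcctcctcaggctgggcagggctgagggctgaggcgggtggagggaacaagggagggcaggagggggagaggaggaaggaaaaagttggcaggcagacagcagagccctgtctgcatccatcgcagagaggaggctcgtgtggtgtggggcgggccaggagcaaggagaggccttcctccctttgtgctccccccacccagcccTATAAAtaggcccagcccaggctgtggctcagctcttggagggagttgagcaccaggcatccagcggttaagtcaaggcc

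Of the secreted proteins other than TTR, 5 of 7 rose with TTR. SOSTDC1, a secreted antagonist of BMP and Wnt signals, had lowest, median and highest levels of 0.535, 2.14 and 52.8 FPM in bHR, 0.993, 15.98 and 193 in bIR and 1.008, 3.10 and 26.5 in bLR. It spanned 359.5-fold over the 18 rats, the groups overlapped, and its slope of 0.96 ± 0.04 on the log2 scale was the largest of the 34 (limma, adjusted p = 4.64e-12). F5, coagulation factor V, stood at 1.66, 3.03 and 25.8 FPM in bHR, 1.76, 7.78 and 144 in bIR and 1.18, 3.82 and 34.3 in bLR. Its order over the rats was close to that of TTR (Spearman rho = 0.990 over 18 rats), with a slope of 0.74 ± 0.05. IGF2, a growth factor released into the fluid, ran from 26.2 to 613 FPM with a slope of 0.47 ± 0.04, and IGFBP2, which binds insulin-like growth factors, from 7.48 to 165 FPM with a slope of 0.45 ± 0.03. A neighbouring measured locus overlaps IGF2 in the GRCr8 annotation and the strand setting of the read counting is not given in the sources used here, so its level is uncertain.

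ENPP2, which makes lysophosphatidic acid, changed least with TTR among the secreted genes that were called. Its lowest, median and highest levels were 202, 293.2 and 816 FPM in bHR, 262, 389.6 and 2421 in bIR and 236, 265 and 655 in bLR. Its slope was 0.35 ± 0.04 (limma, adjusted p = 2.19e-06). In the 11 libraries low in TTR it kept between 202 and 306 FPM while TTR changed from 61.1 to 192 FPM. The secreted genes without a called slope were LBP and WFDC2. LBP, which binds bacterial lipopolysaccharide, stood at 0.187, 0.437 and 0.833 FPM in bHR, 0.153, 0.562 and 1.30 in bIR and 0.0840, 0.308 and 0.498 in bLR, from 4 to 48 reads a library, with a slope of 0.16 ± 0.08 (adjusted p = 0.469). WFDC2, a small secreted protein of the whey acidic protein family, stood at 3.71, 4.14 and 5.196 FPM in bHR, 3.27, 4.21 and 6.04 in bIR and 3.09, 4.22 and 5.02 in bLR. Its highest level was 1.95 times its lowest, the smallest range of the 35 genes, with a slope of 0.05 ± 0.02 (adjusted p = 0.404). WFDC2 overlaps EPPIN, SPINT3 and WFDC6A in GRCr8, so its level is uncertain too.

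Of the channels and transporters, 9 of 10 rose with TTR. KCNJ13, the inward rectifier potassium channel Kir7.1 of the apical membrane, had lowest, median and highest levels of 0.803, 1.86 and 45.8 FPM in bHR, 0.704, 11.7 and 155 in bIR and 0.609, 2.58 and 24.4 in bLR. The 7 libraries highest in TTR were also its 7 highest, its range was 254-fold, and its slope was 0.94 ± 0.05, with a 95% interval of 0.85 to 1.04 that included 1 (limma, adjusted p = 1.25e-11). KCNJ13 overlaps GIGYF2 in GRCr8, a further limit on its level where strand is not known. AQP1, the apical water channel, stood at 1.62, 2.49 and 40.6 FPM in bHR, 1.61, 13.8 and 113 in bIR and 0.945, 3.07 and 18.1 in bLR, with a slope of 0.76 ± 0.04. SLC4A5, a sodium bicarbonate cotransporter, ran from 1.58 to 108 FPM (slope 0.70 ± 0.05), and ABCA4, a lipid flippase best known from the retina, from 0.268 to 17.9 FPM (slope 0.59 ± 0.05).

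KCNE2, a potassium channel beta subunit, and CLIC6, a chloride intracellular channel protein, lie near each other in the genome with 5 protein-coding genes between them in GRCr8. KCNE2 ran from 3.60 to 118 FPM with a slope of 0.57 ± 0.04, and CLIC6 from 5.46 to 125 FPM with a slope of 0.46 ± 0.04. The pair correlated at r = 0.952 over the 18 rats, close to the median r of each with the other members, 0.945 for KCNE2 and 0.954 for CLIC6. SLC13A4, a sulfate transporter, ran from 7.14 to 108 FPM (slope 0.41 ± 0.03), SLC16A8, a lactate transporter, from 0.226 to 7.99 FPM (slope 0.43 ± 0.06), and TRPV4, a calcium channel opened by stretch and warmth, from 0.0284 to 7.92 FPM (slope 0.55 ± 0.09). The lowest TRPV4 value rests on 1 read. SLC29A4, a monoamine transporter also found in neurons, was the transporter without a called slope: it stood at 7.47, 11.5 and 13.7 FPM in bHR, 8.99, 11.2 and 21.1 in bIR and 9.48, 12.027 and 14.8 in bLR, with a slope of 0.08 ± 0.03 (limma, adjusted p = 0.216).

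All 10 receptors, surface enzymes, junction proteins and other membrane proteins rose with TTR. CLDN2, a claudin that makes tight junctions permeable to sodium and water, had lowest, median and highest levels of 1.04, 2.66 and 60.6 FPM in bHR, 1.53, 15.2 and 177 in bIR and 1.53, 2.79 and 30.4 in bLR. It had the smallest adjusted p of the 34 slopes (0.87 ± 0.04, limma, adjusted p = 2.16e-12). CLDN1, a claudin of tighter junctions, ran from 2.23 to 22.9 FPM, a 10.3-fold range against 169-fold for CLDN2, with a slope of 0.30 ± 0.04. The 95% intervals of the slopes, 0.22 to 0.38 for CLDN1 and 0.79 to 0.94 for CLDN2, did not overlap. TMEM72, a membrane protein of the choroid plexus, ran from 0.321 to 78.5 FPM with a slope of 0.87 ± 0.05, and MFRP, a receptor-like protein related to frizzled, from 2.17 to 179.9 FPM with a slope of 0.76 ± 0.04.

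KL encodes Klotho, a coreceptor for FGF23 whose shed form enters the fluid. KL stood at 2.17, 3.08 and 45.7 FPM in bHR, 2.15, 7.05 and 118 in bIR and 1.95, 3.31 and 23.3 in bLR, with a slope of 0.70 ± 0.05 (limma, adjusted p = 4.39e-09). FOLR1, the folate receptor that carries folate into the fluid, stood at 7.31, 10.7 and 44.5 FPM in bHR, 6.52, 19.2 and 125.8 in bIR and 7.65, 10.0 and 25.0 in bLR, with a slope of 0.45 ± 0.04 (adjusted p = 1.67e-07). Both genes were highest in IR_213 and IR_261, but the interval of the slope of KL (0.60 to 0.80) lay above that of FOLR1 (0.37 to 0.53). PRLR, the prolactin receptor, ran from 0.310 to 25.4 FPM (slope 0.68 ± 0.05), and ACE, angiotensin-converting enzyme, from 6.60 to 149.8 FPM (slope 0.49 ± 0.05). STEAP1 and STEAP2 are adjacent genes of the same family, and STEAP2 encodes a metalloreductase. STEAP1 ran from 0.478 to 11.6 FPM (slope 0.41 ± 0.05) and STEAP2 from 8.82 to 28.7 FPM (slope 0.13 ± 0.03, adjusted p = 0.00731). STEAP2 was no longer called when IR_261 was left out (slope 0.10).

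The 3 regulators all had called slopes. OTX2, the homeobox factor needed to form and keep the choroid plexus, stood at 1.47, 4.00 and 12.5 FPM in bHR, 2.16, 5.83 and 31.7 in bIR and 2.62, 3.87 and 6.26 in bLR. Its slope was 0.42 ± 0.04 (limma, adjusted p = 7.36e-07). MSX1, another homeobox factor, ran from 8.22 to 39.1 FPM (slope 0.19 ± 0.03), and CALML4, a calmodulin-like protein, from 14.0 to 68.5 FPM (slope 0.20 ± 0.03). Levels of OTX2 in IR_213 and IR_261, 26.2 and 31.7 FPM, were well above the 12.5 FPM of the next library, HR_38.

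Of the 4 matrix genes, 3 rose with TTR. COL8A1 and COL8A2 encode the chains of collagen VIII. COL8A1 stood at 0.589, 1.18 and 6.68 FPM in bHR, 0.451, 2.02 and 30.7 in bIR and 0.378, 0.719 and 6.26 in bLR. Its slope of 0.65 ± 0.06 stood against 0.30 ± 0.03 for COL8A2, with intervals of 0.51 to 0.78 and 0.24 to 0.36. Differences between the slopes of 2 genes, here and for the claudins, KL and FOLR1, were not tested beyond their intervals. COL8A2 ran from 3.95 to 33.7 FPM. SULF1, which removes sulfate groups from heparan sulfate, ran from 5.65 to 34.5 FPM (slope 0.21 ± 0.04). COL9A3, a chain of collagen IX, stood at 8.45, 9.83 and 13.3 FPM in bHR, 9.77, 12.2 and 26.3 in bIR and 8.41, 10.7 and 13.4 in bLR, with a slope of 0.10 ± 0.03 (limma, adjusted p = 0.173). In IR_248, the library with the fourth highest TTR, COL9A3 was at 9.77 FPM, below its median of 10.7 FPM, and without that library its slope of 0.11 was called.

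**Figure D3:**
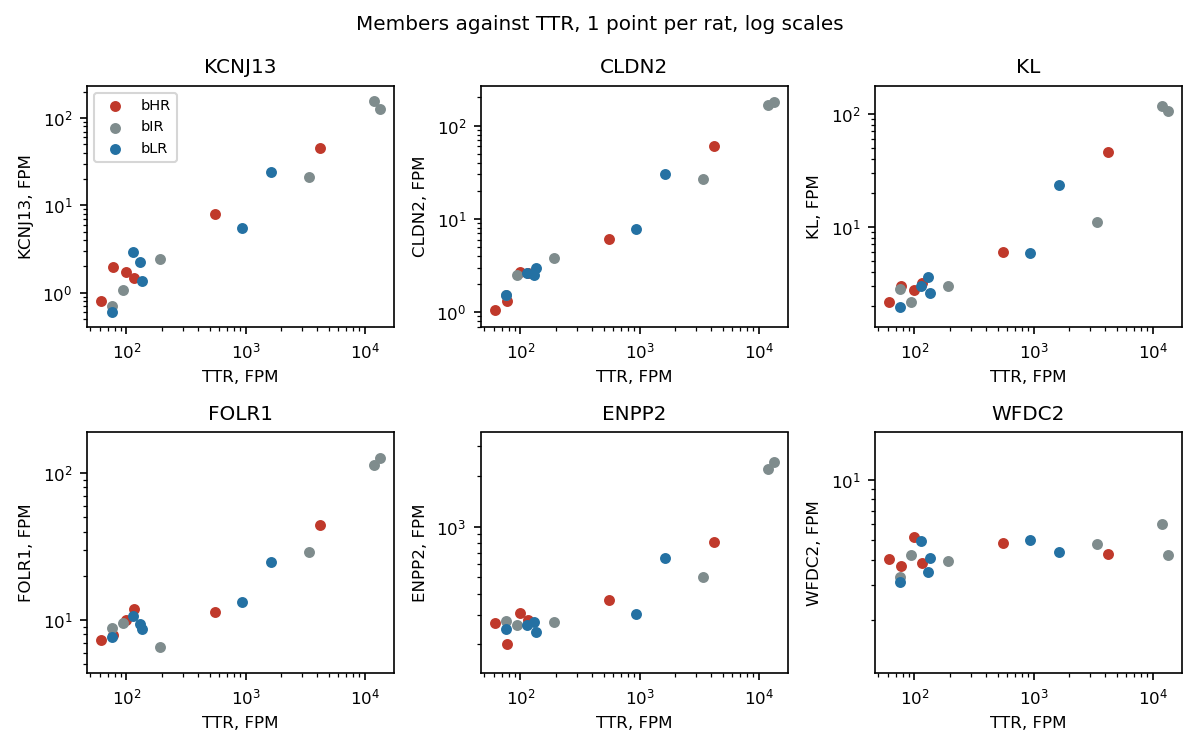
Each point is 1 rat, with TTR (FPM, log axis) across and 1 gene (FPM, log axis) up, coloured by group. KCNJ13 and CLDN2 climb along the whole TTR range, KL, FOLR1 and ENPP2 climb mostly above about 552 FPM of TTR, and WFDC2 stays between 3.09 and 6.04 FPM.

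A straight line of the gene on TTR, both in FPM, was also drawn over the 18 rats. The value of the line at zero TTR was a median of 70.3% of the gene's own median level over the 34 genes. It was 2.19% for CLDN2 and 17.7% for F5, against 71.8% for FOLR1, 69.8% for OTX2, 83.1% for ENPP2 and 89.5% for MSX1. For SOSTDC1, KCNJ13 and TMEM72 the line crossed zero TTR below 0. The values at zero TTR are those of the line and not measured levels. Over the 11 libraries low in TTR the measured median was 2.53 FPM for CLDN2 and 2.61 FPM for F5. Medians of the same genes over the 18 rats were 2.83 and 3.82 FPM. More than 90% of the variance lay on the line in 28 of the 34 genes, and IR_213 and IR_261 lie far from the rest on this scale.

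The genes also moved together among themselves. On the log2 scale the 595 pairs of the 35 genes had a median Pearson r of 0.914 over the 18 rats, 327 pairs (55.0%) were above 0.9, and 1 pair was negative. All points share the same 18 libraries. The first principal component of the 35 genes held 93.7% of their variance, and 86.5% with each gene scaled to the same variance. MFRP had the highest median r with the other 34 genes (0.961), and LBP (0.463), WFDC2 (0.493) and SLC29A4 (0.665) the lowest. With the 4 libraries highest in TTR left out, the median pairwise r was 0.584.

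With TTR itself the 34 genes had a median Pearson r of 0.933, from 0.452 in LBP to 0.986 in CLDN2, and a median Spearman rho of 0.814. By permutation of the rats (100000 resamples, two-sided, adjusted over 20908 genes) 30 of the 34 were called by r, all positive, and 18 by rho. Over all genes 1.28% had a positive r called by the same rule, and 59 of 20908 had a rho called, of either sign. The raw p of CLDN2 was 1e-05 for r and for rho, the smallest that the resamples can give. A correlation above 0.9 was found for 23 of the 34 genes and for 48 of all 20908 genes (0.230%). Within groups of 6 rats the median r was 0.941 in bHR, 0.954 in bIR and 0.830 in bLR. Over all rats with group means removed it was 0.927.

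The correlation was also taken within the high and the low libraries, which differ in how wide a range of TTR they cover. Over the 7 libraries from HR_2 upward the median r was 0.941, and over the 11 low libraries 0.415, as a description with no test. Among the low libraries CLDN2 (r = 0.928), F5 (0.918) and MFRP (0.917) still followed TTR, FOLR1 (0.0664) and KCNE2 (0.0781) did so little, and STEAP2 ran the other way (-0.788). Without IR_213 and IR_261, the rats farthest from the median of TTR, the median r over 16 rats was 0.881. Without all 4 libraries above 11 on the log2 scale it was 0.778, and 12 of the 34 slopes were called by limma (ABCA4, AQP1, CLDN2, F5, KCNE2, KCNJ13, KL, MFRP, PRLR, SLC4A5, SOSTDC1 and TMEM72) against 0.0957% of all genes called positive. In the 11 low libraries alone limma called 0 of the 34 slopes and 0 (0%) of all genes. There 13 of the 34 and 843 of 20908 genes had an unadjusted p under 0.05, and 28 of the 34 slopes were positive.

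**Figure D4:**
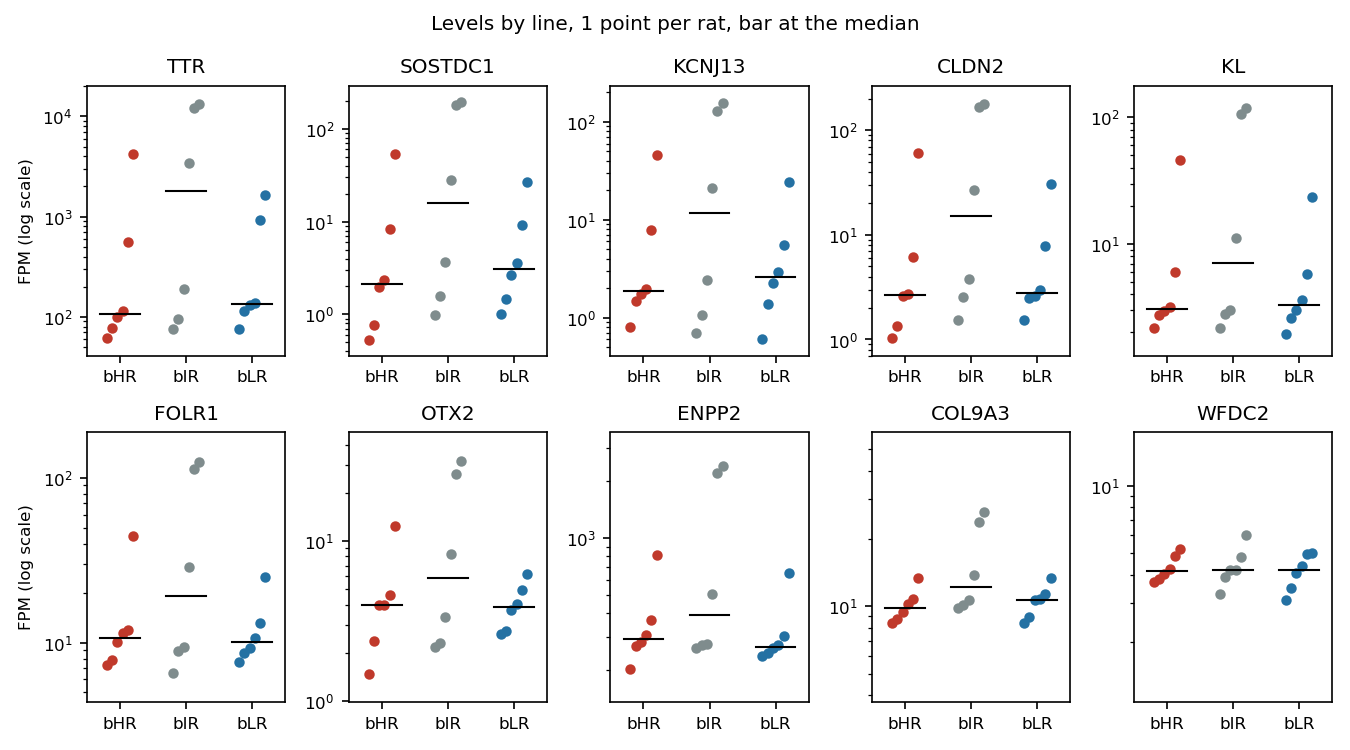
Levels of 10 genes (FPM, log axis) in bHR, bIR and bLR, with 1 point per rat and a bar at the median of each group of 6. In every panel the points of the 3 groups overlap, and in all but WFDC2 the 2 highest points are the bIR rats IR_213 and IR_261.

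Differences between the groups were tested for each gene with limma over all 18 rats, and the 3 comparisons share rats. Between bHR and bLR, 0 of the 35 genes were called, and 0 had an unadjusted p under 0.05, where 0.445% of all genes (93) were called. The median difference of the 35 genes, bHR minus bLR, was 0.11 on the log2 scale, with 23 higher in bHR, where 49.5% of all genes were. Its direction turned with the setting: it was -0.23 with 11 higher in bHR with depth as a covariate, -0.06 with 14 under array weights, -0.02 with 15 without LR_16 and -0.21 with 9 without HR_38, and 0.40 with 34 without LR_20. TTR differed by -0.15 (95% interval -2.83 to 2.53, adjusted p = 0.990). KL differed by 0.17 (-1.80 to 2.15) and FOLR1 by 0.11 (-1.19 to 1.41). These 3 intervals reach past 1 log2 unit in both directions, so a difference of 2-fold either way was within what 6 rats a group could not tell from 0.

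All 35 genes had a higher mean log2 level in bIR than in bHR, by a median of 1.18, and than in bLR, by a median of 1.20. Of all genes, 52.4% were higher in bIR than in bHR and 50.6% than in bLR. The 35 genes move together, so these are not 35 separate results, and 0 were called in either comparison. Without IR_213 the medians of the 35 genes were 0.69 and 0.73, and without IR_261 0.70 and 0.76. The genome-wide shares called were 0.00957% (2 genes) between bIR and bHR and 0% between bIR and bLR. At an unadjusted p under 0.05 there were 3 of the 35 and 1214 of all genes between bIR and bHR, and 9 of the 35 and 1524 of all genes between bIR and bLR. TTR was higher in bIR by 2.09 than in bHR (interval -0.59 to 4.77, limma, adjusted p = 0.864) and by 1.94 than in bLR (-0.74 to 4.62, adjusted p = 0.788). For CLDN2 the differences were 1.94 and 1.78, and for FOLR1 1.00 and 1.11. The bIR group holds 3 of the 4 libraries highest in TTR. Without those 4 libraries the difference of TTR was -0.17 against bHR and -1.16 against bLR, and 14 and 7 of the 35 genes had the higher mean in bIR. This cut was made on TTR itself and took out 3 bIR rats and HR_38 but no bLR rat. It lowers bIR by its making, so these values are no test of the groups. Group accounted for a median of 16.4% of a gene's variance over the rats, from 1.90% in WFDC2 to 27.3% in CLDN1. Such a share is above 0 even where groups do not differ, and it was not compared with that of all genes.

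With log2 TTR as a covariate, which compares the groups at equal TTR, 0 of the 34 remaining genes were called in each comparison, where 0.488%, 0.00957% and 0% of all genes were. The unadjusted p was under 0.05 for 4 of the 34 and 2081 of all genes between bHR and bLR, 1 and 1521 between bIR and bHR, and 8 and 1504 between bIR and bLR. The smallest adjusted p was that of COL8A2, 0.52 higher in bHR than in bLR (interval 0.17 to 0.87, limma, adjusted p = 0.232). The median differences were 0.07 between bIR and bHR and 0.28 between bIR and bLR, and stood at 0.18 between bHR and bLR. Single rats moved them: bIR minus bHR ran from -0.03 without HR_2 to 0.19 without IR_248, and was -0.02 with depth as a further covariate. With 1 rat left out, bIR minus bLR ran from 0.10 without LR_48 to 0.39 without IR_248, and bHR minus bLR from 0.06 without LR_48 to 0.26 without HR_2.

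Some pairs of libraries high in TTR held the genes in different proportions. This was looked at after the values were seen, in pairs of single libraries, so there is no replicate and no test. LR_20 had 0.481 times the TTR of IR_248, but 3.11 times its F5, 2.63 times its ABCA4, 2.56 times its COL8A1 and 2.10 times its KL. LBP (0.444, on 23 reads in LR_20 and 34 in IR_248), KCNE2 (0.464), CALML4 (0.644) and IGFBP2 (0.695) were lower in LR_20, as TTR was. In all, 19 genes were higher in LR_20 and 16 in IR_248. HR_38 had 1.23 times the TTR of IR_248 and 4.12 times its KL (45.7 against 11.1 FPM), and 31 of the 35 genes were higher in HR_38. IR_213 had from 0.695 to 2.92 times the levels of IR_261, with a median ratio of 0.981 over the 35 genes, and HR_2 from 0.363 to 4.79 times those of LR_48, with a median of 1.02. The highest ratio in both pairs was that of LBP, which rests on 21 reads in IR_261 and 8 in LR_48. The medians of LR_20 and of HR_38 over IR_248 were 1.15 and 1.77.

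**Figure D5:**
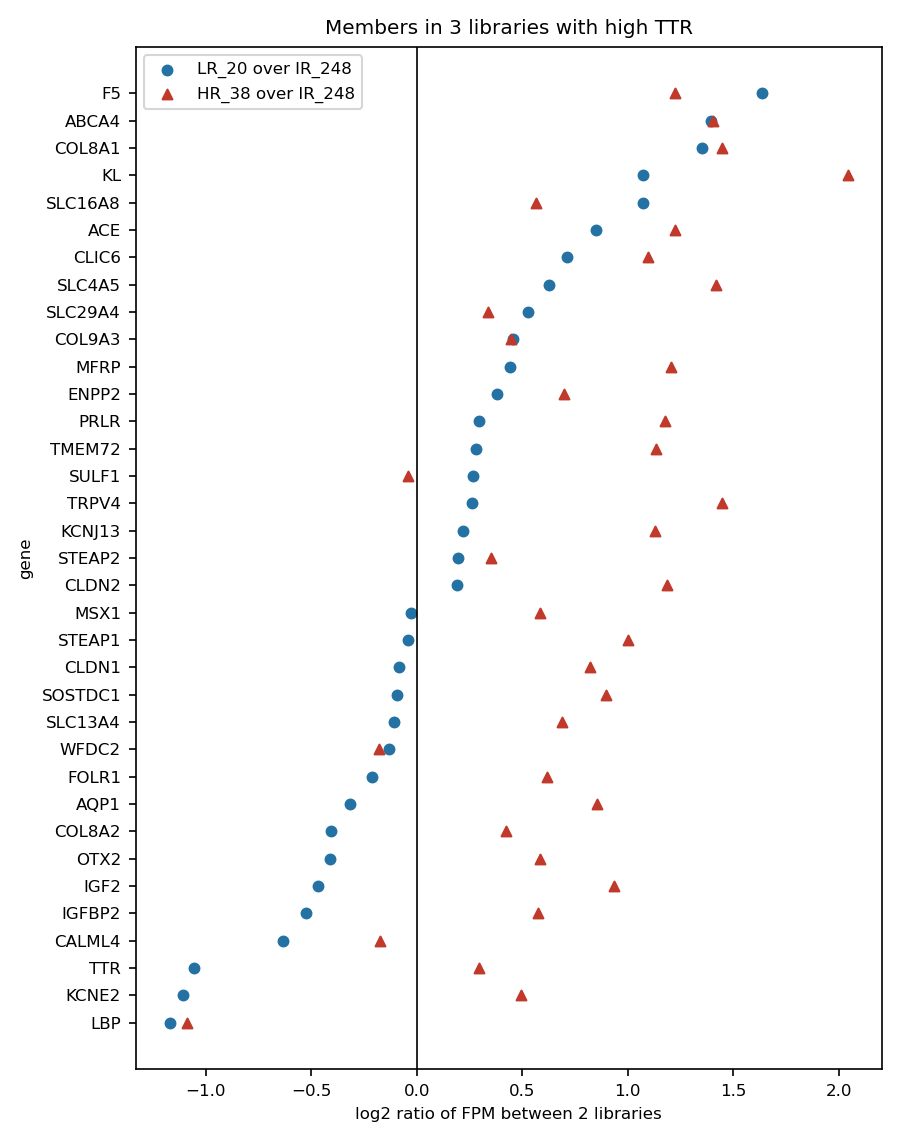
Log2 ratios of FPM between single libraries for the 35 genes, LR_20 over IR_248 as circles and HR_38 over IR_248 as triangles, ordered by the circles. TTR, with a ratio of 0.481, sits near the bottom of the circles and F5, with 3.11, at the top, and most triangles lie to the right of 0.

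Genes outside the 35 that followed TTR most closely, by Pearson r over the 18 rats among 15636 genes with a mean log2 level of at least 0, were headed by SLCO1A5, an organic anion transporter (0.980), TMEM27, also called collectrin (0.97), PLA2G5, a secreted phospholipase (0.969), SCGB1C1, a secretoglobin (0.947), and MDK, the growth factor midkine (0.929). SLCO1A5 ran from 0.385 to 81.7 FPM. The next included RBM47 (0.920), EPN3, LMX1A, HFE, C1QTNF3, MYO5C, SERPINB1A, CDR2, PLIN3, NT5DC2, TC2N, CDH3, SPINT2 and MDFIC (0.892). Of the 20 genes with the highest r in this ranking, 15 belong to the 35, as do 26 of the first 100.

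In lists of further choroid plexus genes, 8 of 24 transport genes and 10 of 23 others had a called positive slope on TTR, where 1.22% of all genes did. They included LMX1A, a homeobox factor of the roof plate (0.39 ± 0.04), CDKN1C, a cell cycle inhibitor (0.21 ± 0.03), and SLC31A1, a copper transporter (0.18 ± 0.03). Median slopes of these lists were 0.04 and 0.10, against 0.45 for the 34 genes. At an unadjusted p under 0.05 a slope was found for 11.1% of all genes, the share against which the next counts are read. Of 15 markers of meningeal fibroblasts 11 had an unadjusted p under 0.05 and 3 were called, OGN (0.24 ± 0.04), PTGDS (0.17 ± 0.03) and MGP (0.12 ± 0.03). PTGDS, a prostaglandin synthase, is also made in the choroid plexus. The summed level of the 15 ran from 566 to 1092 FPM in bHR, 557 to 1792 in bIR and 503 to 1054 in bLR, none was at 0 reads in all libraries, and their part in the result was not tested. Limma called 0 of 14 markers of ciliated ependyma, whose sum ran from 177 to 304 FPM over the 18 rats, and 3 had an unadjusted p under 0.05. Of 11 endothelial markers 0 were called, and their median slope was -0.007. The 1 with an unadjusted p under 0.05 was CLDN5, with a negative slope (-0.03 ± 0.01). PLVAP, a gene of fenestrated vessels, had the most positive slope of the 11, 0.03 ± 0.03. Of 74 markers in 7 lists of mural cells, oligodendrocytes, astrocytes, microglia, granule cells, pyramidal cells and thalamus, 0 were called. An unadjusted p under 0.05 was found for 6 of the 74, which does not set them apart from all genes.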

How the data were processed

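Hippocampal polyA RNA of 18 rats was made into stranded libraries and read from both ends. Per the submitters' processing notes and the series' design text, alignment used Subread on Rnor_6.0 and counting used featureCounts with Ensembl annotation. Genes with few counts or no symbol were removed. The authors deposited log2 values of fragments scaled to library depth, made with voom in limma (R 3.2.2). Other versions and the strand setting of the counting were not stated in the sources used here.

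From the deposited log2 values whole reads were recovered (100% of values within 0.02 of a whole number, with an offset of 0.5 reads), and FPM are these reads on the authors' scale per library. Totals ran from 31.1 to 66.6 M reads, so counting error is small except for genes under about 1 FPM. Each group is 6 separate rats named in the sample titles. Limma 3.58.1 in R 4.3.3 fitted all 20909 genes over 18 rats, with group means alone, or with log2 TTR as a covariate (slopes, and groups at equal TTR, TTR left out), empirical Bayes with a trend, two-sided, Benjamini-Hochberg over all genes, adjusted p under 0.05. Slopes were adjusted over 20908 genes. The scripts were tested on simulated data. Correlations were permuted in Python 3.11.15.

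Any of the 35 members could be named, with the 20 other genes highest in r with TTR (mean log2 of at least 0, no placeholder symbol; 1 is not reported here) and up to 4 of smallest adjusted p from each further list. The members and lists were chosen with earlier results of these data known. Alternatives were a filter on low values, median centring, an offset of 2 reads, depth as a covariate, array weights, FOLR1 in place of TTR, leaving out the 4 libraries above log2 11 of TTR, and leaving out each rat. Use of the 11 libraries under log2 8 alone was added after the data were seen.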

Additional observations from a re-analysis of the deposited data

Results flagged for a closer look

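Within a group of 6 rats, a library was singled out where its gap to the nearest other on the log2 scale exceeded Dixon's critical share of the group's range at the 95% level. Of the 105 combinations of 35 genes and 3 groups, 13 (12.4%) met this, where chance would give about 1 in 20. Since the genes move together, these are not separate events. In bHR all 8 were the library HR_38, in which KCNE2 was at 40.5 FPM, CLIC6 at 45.3, SLC4A5 at 38.6, KL at 45.7, FOLR1 at 44.5, ACE at 52.0, CLDN1 at 11.5 and MSX1 at 22.3, each above the other 5 bHR rats. In bLR all 5 were LR_20, with ENPP2 at 655 FPM, SLC16A8 at 2.93, ACE at 40.1, CLDN1 at 6.16 and COL8A1 at 6.26. In bIR there were 0, where IR_213, IR_261 and IR_248 were all high in TTR.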

How the results depend on the processing

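The count of 0 genes called between groups, with or without TTR as a covariate, held under every alternative run. The 30 called slopes became 29 with the filter on low values, which tests 32 genes, and 32 with array weights. With FOLR1 in place of TTR they became 32, where the 34 genes include TTR and not FOLR1. Under the other scalings 30 were called, and 29 to 31 when 1 rat was left out. The share of all genes with a called positive slope moved too, from 1.22% to 1.34% with the filter, 1.75% with array weights and 1.73% with FOLR1. It was 1.10% to 1.32% under the other scalings, and 0.80% (without IR_261) to 1.39% (without IR_248) with 1 rat left out. Without the 4 libraries above log2 11 of TTR, 12 slopes were called, against 0.0957% of all genes. In the 11 libraries under log2 8 alone 0 were called, against 0%. The median slope of 0.45 was 0.32 without the 4 libraries and 0.43 to 0.47 with 1 rat left out. With FOLR1 as the covariate it was 0.98 per log2 change of FOLR1. That value is on another scale than slopes on TTR, as FOLR1 spanned 19.3-fold over the rats and TTR 219-fold. The median r with TTR was 0.814 by Spearman, 0.986 in FPM, 0.778 without the 4 libraries and 0.415 in the 11. The median pairwise r was 0.723 by Spearman, 0.973 in FPM, 0.584 without the 4 libraries and 0.214 in the 11. In the 11 libraries the slopes of SLC29A4 (-0.11), CLDN1 (-0.038), STEAP2 (-0.29), MSX1 (-0.029), CALML4 (-0.092) and COL9A3 (-0.10) turned negative, as did COL9A3 (-0.0035) without the 4 libraries. The difference of TTR between bHR and bLR, -0.15, ran from -0.991 (without HR_38) to 0.40 (without LR_20) when 1 rat was left out, and was positive without HR_10, HR_22, HR_26, HR_34, LR_20 or LR_48. That of bIR minus bHR was -0.17 without the 4 libraries. That of bIR minus bLR was -1.16 without them and -0.0022 in the 11. Both of the last settings hold fewer rats and choose them by TTR itself, and the cause of these changes was otherwise not tested. Depth limits LBP and TRPV4 most, which fell to 4 and 1 reads. No paired analysis was possible because the groups share no rat numbers.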
